A study of Rattus norvegicus with 24 samples.

Results

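The genes described are those that encode solute carriers (symbols starting with Slc), aquaporins (Aqp), potassium, chloride, sodium and calcium channels (Kcn, Clcn, Clic, Scn, Cacn), ion pumps (Atp1a, Atp2, Atp6), ABC transporters (Abc) and FXYD regulators of the sodium pump (Fxyd). They were chosen by symbol alone, from probes with a single gene symbol, leaving out Slc12a1, Slc15a2, Scnn1a and the mitochondrial Slc25 carriers. Of 1762 genes and unnamed probes with a value, 60 were such genes, each with 1 probe. The tissue was rat kidney, and the labels do not say which part of it.

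Each of 24 cDNA arrays set total RNA of 1 rat against that of another rat of its strain, 1 labelled with Cy5 and the other with Cy3, from groups titled LS and HS, read here as low-salt and high-salt. SS is the Dahl salt-sensitive rat, which becomes hypertensive on a high-salt diet, and SS-13BN/Mcw is its consomic partner, an SS rat whose chromosome 13 was replaced by that of the Brown Norway strain. The 4 groups were SS overnight, SS at 3 days, SS-13BN/Mcw overnight and SS-13BN/Mcw at 3 days, each with 3 rat pairs hybridised in both dye orientations. Ages are not in the labels, and every consomic animal carries the whole substituted chromosome, so a strain difference is not tied to 1 gene. Rats 1 to 3 of a strain appear in the titles of both times. The groups of a strain therefore have these rats in common, and their values are set side by side without a test of their likeness.

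A value is the mean log ratio of both arrays of a rat pair, in the units of the deposited table, after each array was centred on its median. No source used here gives the log base or the numerator, so a value is called positive or negative, and neither a fold nor a direction with salt is stated. Values of a group are means ± SD over rat pairs, and fitted values are ± SE. Adjusted p is from limma over all genes and unnamed probes tested, with 0.05 as the threshold. An array held 877 to 1412 probes, and precision is limited by how few arrays there are.

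Carriers, channels and pumps let the kidney tubule reclaim filtered salt, water and nutrients and secrete acid, potassium and organic waste. The sodium pump in the basolateral membrane sets the gradient on which most carriers run. The proximal tubule holds most carriers for glucose, amino acids, fatty acids and organic anions, and the later segments hold the sodium chloride carriers, the aldosterone-regulated sodium channel and the vasopressin-regulated water channels. Sodium handling by these segments is what long-term blood pressure on a high-salt diet is thought to depend on.

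Most of the transport genes lay close to 0 in each group. Carriers of fatty acids, glucose 6-phosphate and monocarboxylates passed the threshold on the negative side in SS-13BN/Mcw overnight. In that group 3 of 34 tested transport genes passed, all negative, or 8.82 percent, where 10.6 percent of all 1099 genes and probes tested passed, 7.37 percent on the negative side. None of 39 passed in SS overnight (background 1.14 percent), none of 25 in SS at 3 days (0.34 percent) and none of 25 in SS-13BN/Mcw at 3 days (2.98 percent). At an unadjusted p under 0.05 limma had 4, 2, 8 and 4 transport genes in SS overnight, SS at 3 days, SS-13BN/Mcw overnight and SS-13BN/Mcw at 3 days. These were 10.3, 8, 23.5 and 16 percent (background 15.2, 12.2, 30.6 and 16.7 percent). For the mean of the 4 groups 6 of 23 passed, 3 positive and 3 negative, or 26.1 percent against 28.4 percent of all 821 (13.3 percent positive and 15.1 percent negative). For this mean 7 had an unadjusted p under 0.05, or 30.4 percent (background 42.6 percent). The shares past the threshold are near those of all genes and probes. Those at an unadjusted p under 0.05 were lower in each group and for the mean, and this gap was not tested. With so few calls the transport genes are set apart in neither direction.

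The size of the values was lower than that of all genes except in SS-13BN/Mcw at 3 days, and these gaps were not tested. The median absolute value of the transport genes was 0.0677, 0.0817, 0.121 and 0.112 in SS overnight, SS at 3 days, SS-13BN/Mcw overnight and SS-13BN/Mcw at 3 days, against 0.101, 0.0874, 0.15 and 0.0979 over all genes and probes tested. Their medians were -0.017, -0.0484, 0.0162 and 0.0582. The markers of the proximal tubule lay far lower, as the plot of transport genes and markers shows. This list holds no transport gene, 14 of its 17 genes were measured, and its median was -0.6, -0.645, -1.34 and -1.05 in the same order.

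**Figure D1:**
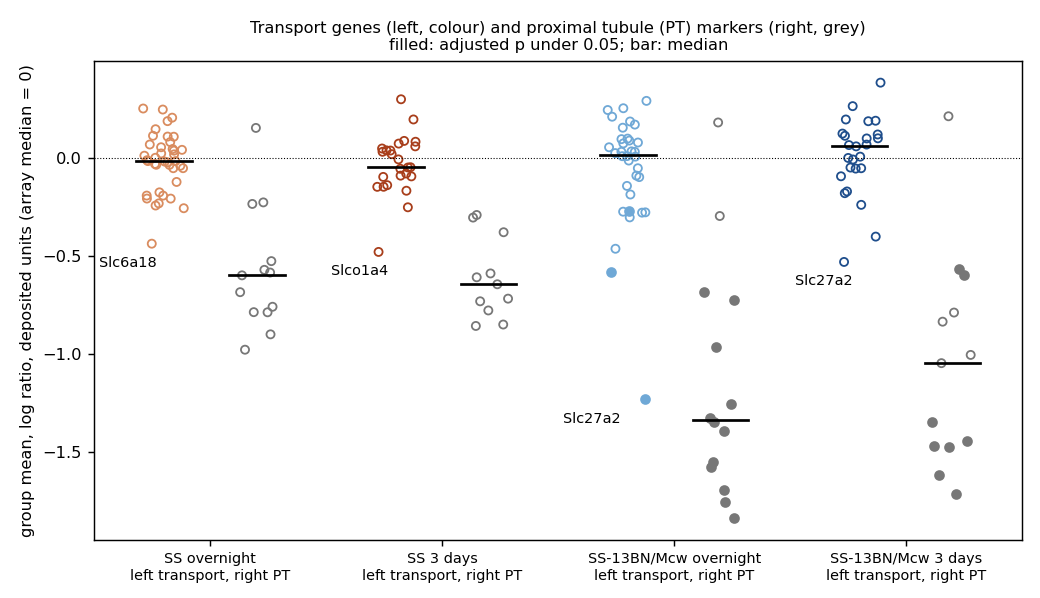
Group means of the tested transport genes (coloured, left of each tick) and of the proximal tubule markers (grey, right), in log-ratio units with the array median at 0. Filled points passed an adjusted p of 0.05 and bars are medians; the transport medians lie between -0.0484 and 0.0582, and Slc27a2 is the lowest transport gene in both SS-13BN/Mcw groups.

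Among the carriers of fatty acids, Slc27a2 had the lowest value of all transport genes. It takes up long-chain fatty acids and activates very-long-chain ones, and is a gene of the proximal tubule. In SS-13BN/Mcw overnight pairs 1 and 3 stood at -0.71 and -1.75, with no value in pair 2 (mean -1.23 ± 0.73, n = 2, adjusted p = 0.0258). At 3 days pairs 1, 2 and 3 of that strain stood at -0.28, -0.34 and -0.97 (mean -0.53 ± 0.38, n = 3, adjusted p = 0.257). SS gave 1 complete pair at each time, at -0.55 overnight and -0.72 at 3 days. All 7 measured pairs were thus negative, and both arrays of each were negative too. The related Slc27a1, which takes up fatty acids in muscle and fat, lay on the other side, with a mean of the 4 groups of 0.12 ± 0.0447 (adjusted p = 0.0556) and 11 of 12 pairs positive.

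Slc37a4, which moves glucose 6-phosphate into the endoplasmic reticulum for the last step of glucose production, had the next lowest mean among the transport genes tested in SS-13BN/Mcw overnight. Pairs 1, 2 and 3 stood at -0.51, -0.34 and -0.90 (mean -0.58 ± 0.29, n = 3, adjusted p = 0.0473). At 3 days pairs 1 and 3 of the strain stood at -0.11 and -0.70. In SS overnight the pairs stood at -0.18, -0.60 and 0.08, and in SS at 3 days pairs 1 and 3 stood at -0.51 and 0.01. The pair values of the strains overlapped at both times. The mean of the 4 groups was -0.37 ± 0.0914 (adjusted p = 0.0139, and 0.0211 with the shared rat as a block). The glucose carriers Slc2a1, Slc2a2 and Slc2a4, which carry sugar across the cell membrane, had tested group means between -0.0563 and 0.099 and none passed. In SS-13BN/Mcw at 3 days Slc2a2 had 1 pair, at 0.20, and was not tested.

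The monocarboxylate carriers, which move lactate, pyruvate and ketone bodies with a proton, lay on opposite sides. Slc16a7 stood at -0.32, -0.27 and -0.19 in SS overnight. Its pairs in SS-13BN/Mcw overnight stood at -0.16, -0.40 and -0.26. It passed in the latter (mean -0.27 ± 0.12, n = 3, adjusted p = 0.0321) and not in the former (-0.26 ± 0.064, n = 3, adjusted p = 0.113), and the difference between the strains was 0.016 ± 0.101 (adjusted p = 0.995). At 3 days its pairs stood at -0.22, -0.01 and -0.21 in SS and at -0.09, 0.08 and -0.02 in SS-13BN/Mcw. Its mean of the 4 groups was -0.17 ± 0.0347 (adjusted p = 0.0039, and 0.0129 with the shared rat as a block). Slc16a1 was positive in each of its 8 measured pairs. Its pairs 1, 2 and 3 stood at 0.23, 0.26 and 0.26 in SS overnight (adjusted p = 0.153) and at 0.21, 0.18 and 0.34 in SS-13BN/Mcw overnight (adjusted p = 0.069), so it did not pass in either.

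The calls of SS-13BN/Mcw overnight rested on few pairs. Of its 3 transport genes, 1 remained without pair 1 and 1 without pair 2, and 0 of 29 passed without pair 3 (2 at an unadjusted p under 0.05 in limma). The Slc16a7 call was lost with quantile normalization (adjusted p = 0.113) and that of Slc37a4 on the values as deposited (adjusted p = 0.0521). A fit of this group alone gave 0 of 34 transport genes (7 at an unadjusted p under 0.05 in limma) and 0 of all 1099 genes and probes. Turning by dye reversed the arrays with the low-numbered rat in Cy5, so a turned value measures the gap between both orientations. There Slc27a2 stood at -0.098 (adjusted p = 0.582) and Slc37a4 at 0.0063 (adjusted p = 0.965), and neither passed. Slc16a7 passed at -0.28 (adjusted p = 0.00561), and its arrays differed by -0.55 between orientations on average over all pairs. Its turned value thus follows this gap. Which of its values to read depends on whether the deposited ratios already run in 1 rat-to-rat direction. The sources used here do not give that direction, so the call holds for unturned values alone. Of the proximal tubule markers, 13 of 14 were negative in SS-13BN/Mcw overnight and 12 passed. The mean of the 7 markers with a value in all pairs ran from -2.167 to -0.849 over the pairs overnight and from -1.398 to -1.009 at 3 days. It ran from -0.891 to -0.399 in SS overnight and from -1.271 to -0.252 in SS at 3 days. Overnight in SS-13BN/Mcw pair 3 was lowest for the markers, Slc27a2 and Slc37a4, and pair 2 for Slc16a7. At 3 days pair 2 was lowest for the markers and pair 3 for Slc27a2. Pair means of the markers of thick ascending limb and distal tubule (5 of 6 measured) ran from -0.319 to 0.04 over all groups, and those of endothelium and stroma (4 of 8 measured, 3 with all pairs) from 0.099 to 0.838. Of leukocyte markers 2 of 7 were measured and C1qb, tested in SS, stood at 0.33 overnight and did not pass. The part of these markers in the result was not tested, and log ratios give no level at which a marker could be called absent. In whole tissue a difference in the number of cells of a type and a difference in RNA per cell cannot be told apart.

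**Figure D2:**
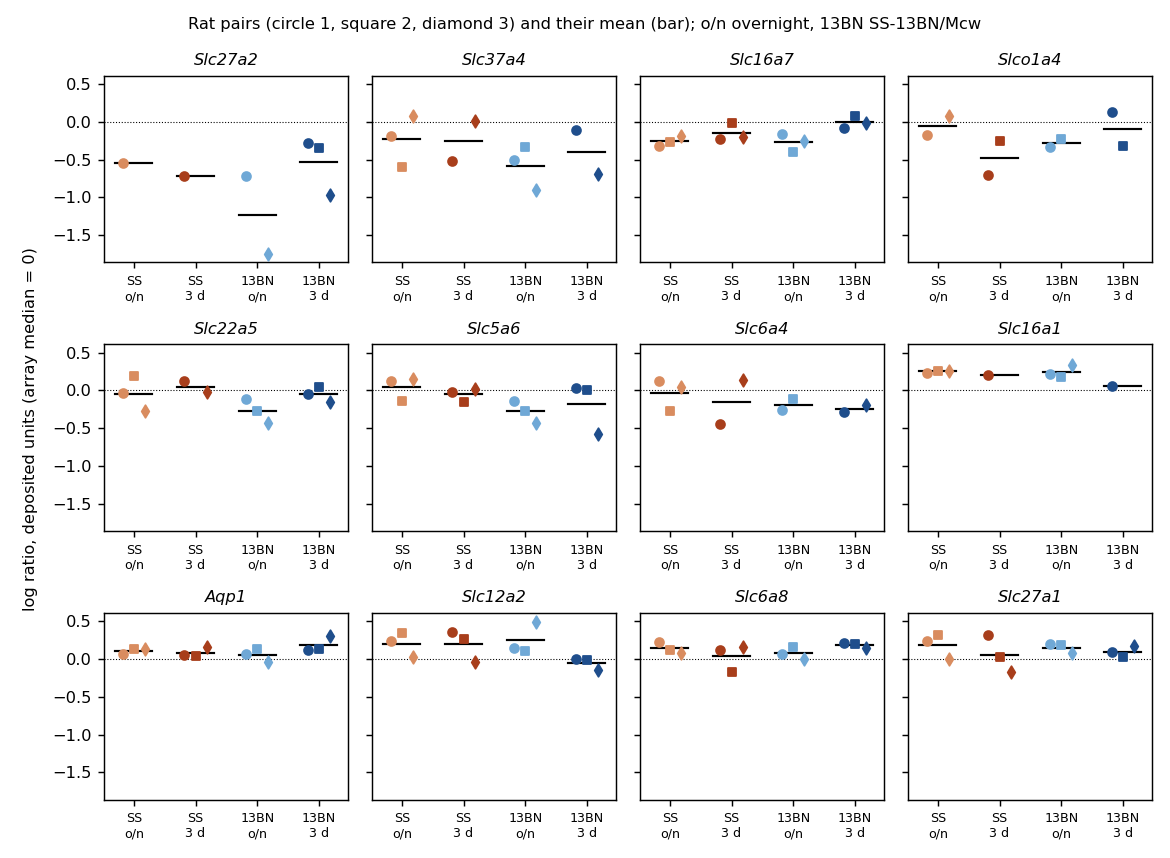
Log ratio (array median at 0) of each rat pair for 12 transport genes, by strain and time (o/n, overnight; 13BN, SS-13BN/Mcw); circles, squares and diamonds are pairs 1, 2 and 3 and bars are means of the measured pairs. Slc27a2 is negative in all 7 measured pairs and Slc16a1 positive in all 8.

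The 250 bases before the transcription start of the genes that carry these results were taken from RefSeq (GRCr8), which matched 52 of the 60 genes with 57 windows, none of the matched genes on chromosome 13. They are shown 5′ to 3′ on the strand of the gene, for the 3 genes past the threshold in SS-13BN/Mcw overnight (the first of the 2 windows of Slc37a4) and for the water channel Aqp1. Capitals mark a match on either strand to 1 of 3 motifs. GTTAAT is the repeated unit of the site of the tubule factor HNF1. TGTTCT is the repeated unit of a steroid receptor site. TATAAA is a TATA box. No match overlapped another.
Slc27a2, chr3:134257851-134258100, plus strand: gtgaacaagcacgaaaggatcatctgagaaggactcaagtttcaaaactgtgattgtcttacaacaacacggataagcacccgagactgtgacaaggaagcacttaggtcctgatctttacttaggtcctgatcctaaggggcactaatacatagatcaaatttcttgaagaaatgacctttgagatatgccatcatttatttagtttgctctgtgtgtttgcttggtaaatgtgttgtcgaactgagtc
Slc37a4, chr8:53619775-53620024, plus strand: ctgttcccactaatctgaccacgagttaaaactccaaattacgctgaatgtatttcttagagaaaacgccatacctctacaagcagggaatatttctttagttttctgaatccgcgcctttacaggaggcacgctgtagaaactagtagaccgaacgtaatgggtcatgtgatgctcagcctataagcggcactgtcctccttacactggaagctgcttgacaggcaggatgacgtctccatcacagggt
Slc16a7, chr7:63040399-63040648, minus strand: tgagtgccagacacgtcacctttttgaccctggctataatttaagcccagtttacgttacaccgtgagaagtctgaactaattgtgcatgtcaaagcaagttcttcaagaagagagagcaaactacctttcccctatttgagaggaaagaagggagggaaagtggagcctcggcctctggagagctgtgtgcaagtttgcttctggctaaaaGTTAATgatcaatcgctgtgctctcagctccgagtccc
Aqp1, chr4:85812534-85812783, plus strand: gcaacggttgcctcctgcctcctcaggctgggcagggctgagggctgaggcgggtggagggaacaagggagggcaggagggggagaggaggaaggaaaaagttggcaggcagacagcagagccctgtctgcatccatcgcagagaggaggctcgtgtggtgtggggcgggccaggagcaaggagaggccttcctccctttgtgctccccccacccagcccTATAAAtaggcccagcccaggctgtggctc
Slc16a7 holds GTTAAT at base -38 and Aqp1 holds TATAAA at base -30 from the start, and the windows of Slc27a2 and Slc37a4 hold none of the 3 motifs. GTTAAT was in 7.02 percent of the 57 windows of transport genes and in 6.45 percent of all 33469 windows. The shares were 8.77 against 17.5 percent for TGTTCT and 8.77 against 12.9 percent for TATAAA. These matches are letters in a window and say nothing of a factor.

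Carriers of organic anions, cations and nucleosides spread over both sides. Slco1a4, which carries bile acids, steroid conjugates and drugs, stood at -0.71 and -0.25 in pairs 1 and 2 of SS at 3 days and at -0.33 and -0.23 in pairs 1 and 2 of SS-13BN/Mcw overnight. In SS overnight pairs 1 and 3 stood at -0.18 and 0.07, and in SS-13BN/Mcw at 3 days pairs 1 and 2 at 0.13 and -0.32. Its mean of the 4 groups was -0.23 ± 0.0723 (adjusted p = 0.0487), which did not pass with the shared rat as a block (adjusted p = 0.0898). Slc22a5, the sodium-dependent carnitine carrier, stood at -0.12, -0.27 and -0.43 in SS-13BN/Mcw overnight (mean -0.28 ± 0.16, n = 3, adjusted p = 0.0872) and had both signs in SS. Slc28a2, a concentrating nucleoside carrier, was positive in 6 of 8 pairs, with means of 0.25 ± 0.22 (n = 3) in SS overnight and 0.30 ± 0.0397 (n = 2) in SS at 3 days (adjusted p = 0.365 and 0.445).

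Of the vitamin carriers, Slc5a6, which takes up biotin and pantothenate, stood at -0.13, -0.27 and -0.43 in SS-13BN/Mcw overnight (adjusted p = 0.123). In SS overnight its pairs stood at 0.12, -0.15 and 0.15. The folate carrier Slc19a1 was negative in each of its 6 pairs, from -0.96 to -0.05, with a mean of -0.24 ± 0.17 (n = 3, adjusted p = 0.291) in SS overnight, the group in which it was tested. The phosphate and anion carrier Slc17a1, a gene of the proximal tubule, had 2 pairs, at -0.10 and -0.83 in SS-13BN/Mcw overnight (adjusted p = 0.172).

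Among amino acid carriers and their relatives, the creatine carrier Slc6a8 was positive in 11 of 12 pairs. Its pairs stood at 0.23, 0.12 and 0.09 in SS overnight and at 0.12, -0.17 and 0.16 in SS at 3 days. In SS-13BN/Mcw they stood at 0.06, 0.16 and 0.01 overnight and at 0.22, 0.20 and 0.15 at 3 days. The mean of the 4 groups was 0.11 ± 0.036 (adjusted p = 0.0357, and 0.0712 with the shared rat as a block, so the call was lost). Slc6a18, a neutral amino acid carrier of the proximal tubule, was negative in each of its 5 pairs, from -0.84 to -0.20, with a mean of -0.44 ± 0.34 (n = 2, adjusted p = 0.242) in SS overnight. The glutamate carrier Slc1a1 stayed near 0, with group means between -0.053 and -0.00095 over 12 pairs. The arginine and lysine carrier Slc7a1 stood at 0.29 ± 0.18 (n = 2) in SS-13BN/Mcw overnight (adjusted p = 0.122) and at 0.017 ± 0.0912 (n = 3) in SS overnight. The heavy chain Slc3a2, which brings several amino acid carriers to the membrane, had -0.21 ± 0.0294 (n = 2, adjusted p = 0.406) in SS overnight, and the peptide carrier Slc15a4 stood near 0 there. The serotonin carrier Slc6a4 was negative in 6 of 9 pairs, with a mean of the 4 groups of -0.15 ± 0.0686 (adjusted p = 0.122).

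The carriers of sodium chloride and bicarbonate were led by Slc12a2, the basolateral sodium-potassium-chloride cotransporter that many secretory cells use. Its pairs stood at 0.24, 0.34 and 0.03 in SS overnight and at 0.36, 0.27 and -0.04 in SS at 3 days. In SS-13BN/Mcw they stood at 0.15, 0.11 and 0.50 overnight and at 0.01, -0.02 and -0.14 at 3 days, where the mean of -0.05 was the 1 negative mean of the 4 groups. The mean of the 4 groups was 0.15 ± 0.0483 (adjusted p = 0.0356, and 0.0694 with the shared rat as a block). The anion exchanger Slc4a1, found in red blood cells and in acid-secreting cells of the collecting duct, stood at -0.42, 0.03 and -0.23 in SS overnight. In SS-13BN/Mcw it stood at -0.05 and -0.56 in pairs 2 and 3 overnight and at 0.21 and 0.55 in pairs 1 and 3 at 3 days. The thiazide-sensitive Slc12a3 and the bicarbonate carrier Slc4a4 had 4 and 3 arrays and were not tested.

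Of the water channels, Aqp1, the channel of the proximal tubule and the thin descending limb, was positive in 11 of 12 pairs. Its pairs stood at 0.07, 0.13 and 0.14 in SS overnight and at 0.05, 0.04 and 0.16 in SS at 3 days. In SS-13BN/Mcw they stood at 0.07, 0.14 and -0.04 overnight, and at 0.12, 0.14 and 0.30 at 3 days. The mean of the 4 groups was 0.11 ± 0.0314 (adjusted p = 0.0216, and 0.056 with the shared rat as a block). Aqp1 thus lay on the other side from the proximal tubule markers tested for the mean of the 4 groups. Their median for it was -1.11, with 11 of 11 past the threshold. The marker Fbp1 was not tested for this mean and lay on the side of Aqp1. It stood at 0.15 in SS overnight, and at 0.18 overnight and 0.21 at 3 days in SS-13BN/Mcw, and did not pass. Aqp3, a basolateral channel of the collecting duct, stood at -0.15, 0.00 and -0.22 in SS overnight and at -0.09, -0.12 and -0.21 in SS at 3 days. In SS-13BN/Mcw at 3 days its pairs stood at -0.09, 0.07 and 0.39. Aqp5 and Aqp9 had values on 3 arrays each and were not tested.

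No tested pump or FXYD gene passed in any group, and the tested group means ran from -0.19 for Atp2c1 to 0.26 for Atp6v1f. No Atp1a or Clic gene had a value under a single gene symbol, so these pumps leave out the Atp1a subunits of the sodium pump. Fxyd2, the gamma subunit of the sodium pump, had group means of -0.053 ± 0.0981, -0.08 ± 0.0361, -0.14 ± 0.14 and 0.12 ± 0.0609 (n = 3 each) in SS overnight, SS at 3 days, SS-13BN/Mcw overnight and SS-13BN/Mcw at 3 days. Fxyd4, a regulator of the pump in the collecting duct, had -0.031 ± 0.098, -0.17 ± 0.12, 0.088 ± 0.045 and 0.065 ± 0.12. The calcium pumps Atp2a2, of the endoplasmic reticulum, and Atp2b1, of the cell membrane, had group means from -0.095 to 0.20 and from -0.012 to 0.038. Of the proton pump of acidic compartments, the membrane subunit Atp6v0c and the accessory subunit Atp6ap1 had group means from -0.014 to 0.11 and from -0.055 to 0.068. The subunit Atp6v1f had larger means, up to 0.26 ± 0.16 (n = 2) in SS-13BN/Mcw at 3 days, with 4 of 10 pairs negative. The calcium pump Atp2b2 had 0.17 ± 0.0128 (n = 3, adjusted p = 0.169) in SS-13BN/Mcw overnight, and the calcium and manganese pump Atp2c1 and the FXYD gene Fxyd1 were tested in SS overnight alone, at -0.19 ± 0.0816 and 0.036 ± 0.0364 (n = 2 each). In all 10 of the 12 pump and FXYD genes were tested.

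The channels gave few values. Scn7a, which senses the extracellular sodium level in the brain, had group means from -0.099 to 0.11 over 12 pairs and did not pass. Of the calcium channel subunits, Cacnb3 was positive in 8 of 9 pairs and Cacnb2 in 5 of 6, while Cacnb1 was negative in 8 of 10. These beta subunits bring the pore to the membrane, and none passed. The pore subunit Cacna1g had -0.18 ± 0.0888 (n = 2, adjusted p = 0.476) in SS overnight. The potassium channels Kcnc1, Kcnk3 and Kcnn3 and the chloride channel Clcn2 had values on 2 to 4 arrays and were not tested. Of the ABC transporters, the peroxisomal Abcd3 stood at -0.13, -0.33 and -0.12 in SS overnight (adjusted p = 0.413) and the drug exporter Abcc1 was not tested.

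In all, 41 of the 60 genes were tested in at least 1 group, 23 in all 4, and 17 had a value on each of the 24 arrays. The 19 tested in no group were, besides those named, Atp2a1, Atp6v0a1, Cacna1a, Slc10a1, Slc11a2, Slc1a2, Slc32a1, Slc22a3, Slc29a1 and Slc29a2. They had 0 to 2 complete pairs each. The widest single pairs among them were 0.98 for Atp2a1, in SS-13BN/Mcw at 3 days, and -0.62 for Kcnc1, -0.61 for Atp6v0a1 and -0.50 for Slc11a2, in SS overnight. Both arrays of the Atp2a1 pair lay on opposite sides of 0, at 2.01 and -0.06. Of the 35 genes with at least 5 pairs, 4 lay on 1 side in every pair (Slc27a2, Slc19a1 and Slc6a18 negative, Slc16a1 positive), or 11.4 percent, where 7.14 percent of all genes and probes did. These 4 were noticed after their values were seen, and Slc27a2 apart they did not pass in any comparison.

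The strain differences ask whether the response of SS differs from that of the consomic strain, and neither had a transport gene past the threshold. Overnight none of 32 passed in limma (background 0 percent of 1052) and none had an unadjusted p under 0.05 (background 4.94 percent). At 3 days none of 23 passed (background 0 percent of 823) and 2 had an unadjusted p under 0.05 (background 8.38 percent). Overnight the smallest p were those of Slc5a6 (SS minus SS-13BN/Mcw 0.32 ± 0.16), Slc7a1 (-0.27 ± 0.13) and Slc22a5 (0.23 ± 0.13), with adjusted p of 0.898, 0.898 and 0.898. At 3 days they were those of Fxyd4 (-0.23 ± 0.0987), Atp2a2 (-0.29 ± 0.13) and Aqp3 (-0.26 ± 0.12), with adjusted p of 0.543, 0.564 and 0.564. At 3 days the SS pairs ran from -0.21 to -0.09 for Aqp3 and from -0.13 to -0.06 for Atp2a2. Pairs 1, 2 and 3 of SS-13BN/Mcw stood at -0.09, 0.07 and 0.39 for Aqp3 and at 0.15, -0.02 and 0.46 for Atp2a2. Collecting duct markers, of which 3 of 6 were measured with Aqp3 among them, had pair means from -0.11 to -0.028 in SS and from 0.127 to 0.422 in SS-13BN/Mcw at 3 days, and their part in the result was not tested. The titles also hold a running number that the labels do not name, by which neither SS group is interleaved with arrays of the consomic strain. If it marks an order of work, that order and strain cannot be told apart.

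The time differences within a strain, which ask whether the response had moved by 3 days, had none past the threshold either (0 of 25 in each strain, background 0 percent of 879 in SS and of 896 in SS-13BN/Mcw). In SS none had an unadjusted p under 0.05 in limma (background 1.93 percent), and the difference with the lowest p was that of Slco1a4 (3 days minus overnight -0.43 ± 0.21, adjusted p = 0.988). It was followed by Fxyd4 (-0.14 ± 0.0994) and Slc16a7 (0.11 ± 0.0989). In SS-13BN/Mcw 4 had an unadjusted p under 0.05 (background 11.2 percent). They were Slc4a1 (0.69 ± 0.22, adjusted p = 0.359), Fxyd2 (0.26 ± 0.0959, adjusted p = 0.361), Slc16a7 (0.26 ± 0.0991, adjusted p = 0.379) and Slc12a2 (-0.30 ± 0.14, adjusted p = 0.434). Pairs 1, 2 and 3 of Fxyd2 stood at -0.04, -0.09 and -0.30 overnight and at 0.16, 0.15 and 0.05 at 3 days. Beside Slc4a1, the hemoglobin gene Hbb of red blood cells stood at -0.07 and -0.16 in the same 2 pairs overnight and at -0.12 and 0.42 in the same 2 pairs at 3 days. Hba-a1 stood at 0.39 and 0.06 in those pairs overnight and at 0.14 in pair 1 at 3 days. Of the red blood cell list 3 of 4 genes were measured, and their part in the Slc4a1 values was not tested.

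**Figure D3:**
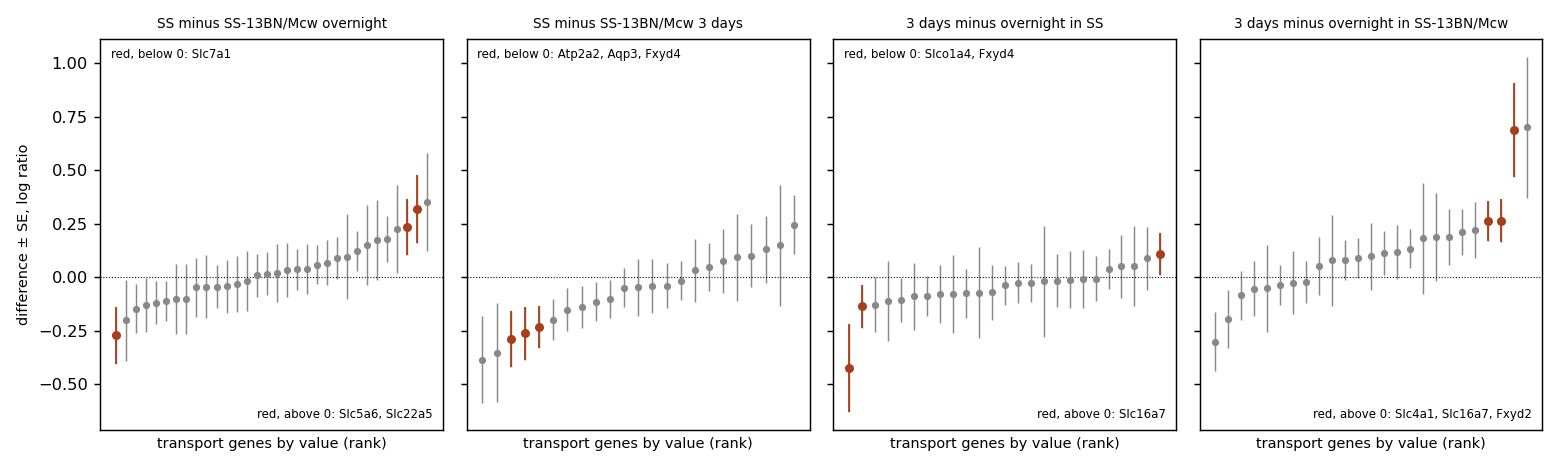
Fitted differences (log ratio ± SE) of every tested transport gene for both strain differences and both time differences, ordered by value within a panel. Red points are the 3 genes with the smallest p in each panel, and none passed an adjusted p of 0.05.

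The calls for the mean of the 4 groups depended on the shared rats and on single pairs. With the shared rat as a block 2 of the 6 remained, Slc16a7 and Slc37a4. The count of 6 was 3 without pair 1 or pair 2 of SS overnight and 2 without pair 1 of SS at 3 days. It was 3 without pair 2 of SS-13BN/Mcw overnight, and 2, 3 and 2 without pair 1, 2 and 3 of SS-13BN/Mcw at 3 days.

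Both arrays of a rat pair often stood on opposite sides of 0. They lay on the same side in 50.7 percent of 373 pair values of transport genes and in 52.1 percent of all pair values. The share was high for Slc27a2 (7 of 7 pairs), Slc6a8 (11 of 12) and Slc37a4 (8 of 10). It was low for Slc16a7 (4 of 12) and Slc27a1 (2 of 12), whose arrays with the low-numbered rat in Cy3 stood -0.55 and 0.50 from those with it in Cy5 on average. Both orientations enter each pair value with equal weight, so a gap that is the same in all pairs cancels from it. Aqp1 had both arrays on 1 side in 8 of 12 pairs, Slc12a2 in 7 of 12 and Slco1a4 in 6 of 8.

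**Figure D4:**
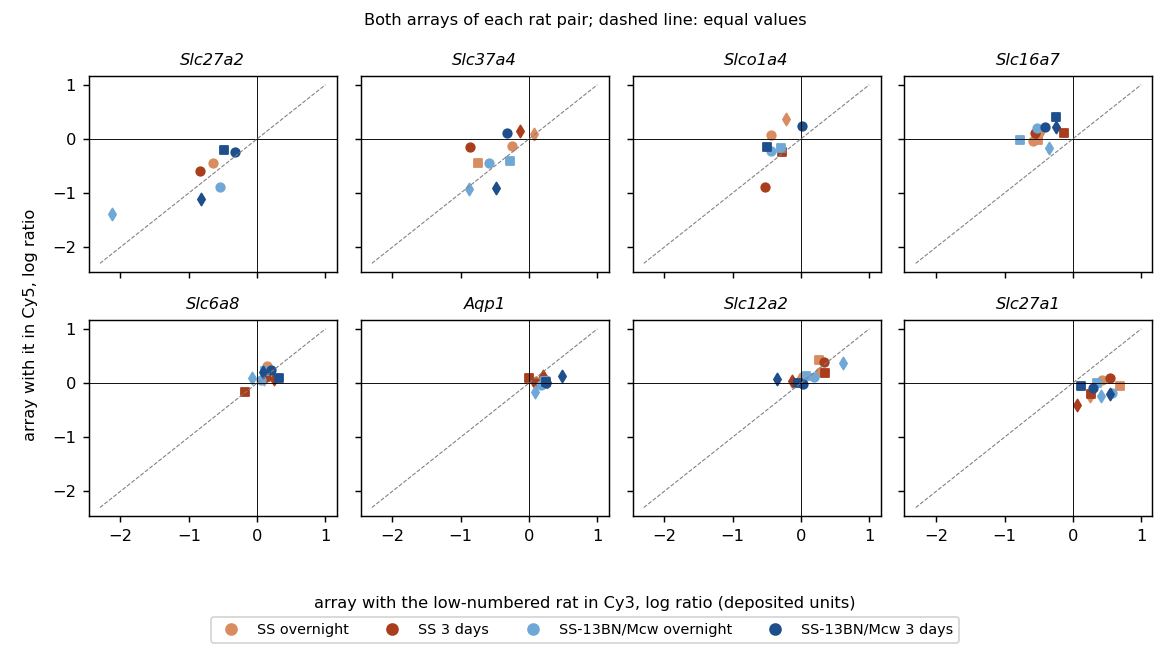
Log ratio of each rat pair on the array with the low-numbered rat in Cy3 (x axis) against the array with it in Cy5 (y axis) for 8 transport genes, coloured by group; the dashed line marks equal values. Points of Slc27a2 lie in the lower left on both sides of the line, while those of Slc16a7 and Slc27a1 lie to 1 side of it.

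Of a list of 53 partners and regulators of transport, 12 were measured and 10 tested for the mean of the 4 groups, where 1 passed on the positive and 2 on the negative side. These 3 are 30 percent of the 10, near the 28.4 percent of all genes and probes that passed for this mean. At an unadjusted p under 0.05 limma had 7 of the 10, or 70 percent (background 42.6 percent), and this gap was not tested. The sodium pump subunit Atp1b1 stood at 0.28 ± 0.0452 (adjusted p = 0.00124). The kinase Sgk1, which aldosterone induces and which keeps sodium channels in the membrane, stood at -0.19 ± 0.0581 (adjusted p = 0.0315), and the aldosterone receptor gene Nr3c2 at -0.16 ± 0.0545 (adjusted p = 0.0437). With the shared rat as a block Atp1b1 passed (adjusted p = 0.00461) and the other two did not (0.0752 and 0.0652). Within the groups Atp1b1 passed in SS-13BN/Mcw at 3 days (0.41, adjusted p = 0.0352), 1 of 10 tested there, and no partner passed in the other 3 groups. The remaining 7, among them the ezrin gene Ezr, the carbonic anhydrase Car2 and the calcium release channels Itpr1 and Itpr3, did not pass for the mean of the 4 groups.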

How the data were processed

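The deposited values are log ratios, which the authors centred on a mean of 0 in every array, as the values show. Log base, numerator, image analysis and filters: not given in the sources used here. The labels give no separate values of the channels. Of 3742 probes 1766 had a value, 1426 of them with 1 gene symbol, 29 with several and 311 with none; 1421 symbols were found by gene number.

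Each array was centred on its median, probes of a gene were averaged, and both orientations of a rat pair were averaged without turning the sign, since dye-swapped arrays correlated positively in 12 of 12 pairs (r 0.169 to 0.825) once the mean of the other arrays of that orientation was removed. Without the removal 4 of 12 pairs had a negative r (range -0.0595 to 0.749), so the choice rests on the removal, and values with arrays turned by dye were computed as an alternative. The 12 pair values were fitted with limma 3.58.1 (R 4.3.3), with 1 coefficient per group and 8 residual degrees of freedom, for genes with both arrays of 2 or more of the 3 pairs in every group of a comparison. The spread behind each p-value is that between rat pairs, and p-values were adjusted by the Benjamini-Hochberg method over all genes and unnamed probes. The fit was also run on simulated data with independent pairs, which cannot show how the p-values behave where pairs share a rat.

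Overnight and 3-day pairs of a strain share rats 1 to 3, per the titles. Their deviations correlated between 0.0596 and 0.647, and a fit with the shared rat as a block was run (statmod 1.5.0). Genes were given by pair where they passed in any of 9 comparisons, then by p for the mean of the 4 groups up to 12 genes, and the 3 with the lowest p for each difference. The genes and lists were chosen with earlier results of these data known.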

Additional observations from a re-analysis of the deposited data

How the results depend on the processing

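Counts of transport genes past the threshold stayed near the reported count under the other settings, except as follows. In SS overnight 1 of 39 passed with arrays scaled to one spread (51 of all 1138 genes and probes), 1 with quantile normalization (67 of 1138) and 10 with arrays turned by dye (324 of 1138). In SS at 3 days 9 of 25 passed with arrays turned by dye (344 of 882). In SS-13BN/Mcw overnight the count of 3 of 34 (116 of 1099) became 0 in a fit of that group alone (0 of 1099), 6 with arrays turned by dye (308 of 1099) and 6 in a fit of single arrays (218 of 1099), and 0 to 1 with a pair left out. In SS-13BN/Mcw at 3 days 1 of 25 passed with quantile normalization (61 of 906) and 7 with arrays turned by dye (299 of 906). For the mean of the 4 groups the count of 6 of 23 (233 of 821) became 2 with the replicate block of the shared rat (176 of 821), 16 with arrays turned by dye (567 of 821), and 2 to 6 with a pair left out. The replicate block changed the count of no other comparison of transport genes, and no strain or time difference passed under any setting run.

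Turning arrays by dye also changed 14 signs among the named results. In SS-13BN/Mcw overnight Slc37a4 became 0.0063, and Slc27a2 kept its sign but lost its call, at -0.098 (adjusted p = 0.582). In the strain difference overnight Slc7a1 became 0.018 and Slc22a5 -0.13, and at 3 days Fxyd4 became 0.037 and Aqp3 0.032. In the time difference of SS Slco1a4 became 0.36 and Fxyd4 0.063. In that of SS-13BN/Mcw Slc4a1 became -0.25, Fxyd2 -0.026 and Slc16a7 -0.018. For the mean of the 4 groups Slc12a2 became -0.015, Slc6a8 -0.0062, Slc2a4 -0.060 and Slc22a5 0.070, and Slc37a4 lost its call at -0.079 (adjusted p = 0.0998). The other named results gave 337 settings with the same direction and call, 38 that lost the call and 7 that gained one. The Slc16a7 call in SS-13BN/Mcw overnight was among those lost, with adjusted p of 0.0948 after scaling, 0.113 after quantile normalization and 0.134 in the fit of single arrays. The number of arrays limits the precision, and 19 genes had too few pairs to test.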
